A study of Homo sapiens and Mus musculus with 12 samples.

Results

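The 8 human globin genes studied here lie in 2 clusters. HBZ, HBA2 and HBA1 form the alpha cluster near the end of the short arm of chromosome 16, and HBE1, HBG2, HBG1, HBD and HBB form the beta cluster on chromosome 11. They were chosen by name, as 8 of the 20033 protein-coding genes of GENCODE release 44. In each of 5 lists of ChIP-seq peaks, all peaks that touched a cluster or the 60 kb on either side of it were taken, so that distal control elements were included.

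The lists came from 2 human leukemia cell lines, both of which are established lines. THP1, a monocytic line, was used for SPI1 (also called PU.1, a transcription factor of myeloid cells) and for GFI1, a transcriptional repressor that recruits LSD1. K562, an erythroleukemia line, carried a stable Cas9 transgene and a lentiviral guide RNA: sg-NT cells had a non-targeting guide and were used for LSD1 (the histone demethylase encoded by KDM1A) and GFI1, and sg-LSD1 cells had a guide against LSD1 and were used for GFI1. The sg-LSD1 cells were 1 edited line, no drug was named in the labels, and each condition had 1 library, so that there was no replicate spread and no test between factors or lines. Intervals given below cover counting error only, and a peak list does not allow the labelled cell line to be checked against its RNA markers.

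Hemoglobin is a tetramer of alpha-like and beta-like chains, and the genes of each cluster are used in turn: HBZ and HBE1 in the embryo, HBG1 and HBG2 in the fetus, HBB and HBD in the adult, and HBA1 and HBA2 in both fetus and adult. High transcription depends on distal enhancers, which are the locus control region upstream of HBE1 and, for the alpha genes, a group of elements of which the strongest (HS-40, or MCS-R2) lies in an intron of the neighbouring gene NPRL3. Both elements are known to bind GATA1 with TAL1 and its partners, and the erythroid factor NF-E2. LSD1 does not itself recognise such sites and reaches chromatin with its partner RCOR1, through repressors such as GFI1 and GFI1B and also with TAL1. K562 cells are known for transcribing embryonic and fetal globin genes and little HBB, and monocytic cells do not make globin.

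All 7 peaks in the 2 globin windows were LSD1 peaks of sg-NT K562 cells. They are called alpha 1 to alpha 5 and beta 1 and beta 2 here, in the order of their position on each chromosome (GRCh38). The sequence of the stronger beta peak is shown because it lies at a known globin enhancer and holds cores that erythroid factors bind. It is given on the plus strand, with GATA cores (AGATAA or TGATAA), NF-E2/AP-1 cores (TGACTCA or TGAGTCA) and E-boxes (CAGNTG, the kind of site bound by TAL1) of either strand in capitals.
beta 1, the whole peak, chr11:5280680-5280959: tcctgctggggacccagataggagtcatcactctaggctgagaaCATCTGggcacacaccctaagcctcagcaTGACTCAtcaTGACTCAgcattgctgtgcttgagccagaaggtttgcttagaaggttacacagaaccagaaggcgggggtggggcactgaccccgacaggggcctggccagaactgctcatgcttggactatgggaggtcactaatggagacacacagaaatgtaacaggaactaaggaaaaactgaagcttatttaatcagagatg

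In beta 1 there were 2 NF-E2/AP-1 cores in tandem, 10 bp from start to start, and 1 E-box, with no GATA core of the letters searched. A pair of NF-E2/AP-1 cores in 200 bp at the summit was found in 2 of the 7 globin peaks and in 33 of all 6548 LSD1 peaks (0.504%), a count that was made after the sequences had been seen.

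The strongest globin peak, alpha 1, was at chr16:113333-113813 in intron 5 of NPRL3, a gene whose product limits mTORC1 signalling. This is the intron position of HS-40. Its summit lay 39.0 kb upstream of the start of HBZ, 59.3 kb upstream of HBA2 and 63.1 kb upstream of HBA1. The fold of this peak, which is the pileup of fragments at the summit over the local background, each with 1 added, was 12.8. Its −log10 p was 31.0, and it ranked 380th of the 6548 LSD1 peaks (5.80%). From fold and p, 32 fragments (95% exact Poisson interval 21.9 to 45.2) were found to lie over the summit, against a background of 1.58. Of the 7 globin peaks it had the highest fold, −log10 p and number of fragments, but with no 1 added its ratio of fragments to background (20.2) was the same as that of beta 1, described next.

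Beta 1 was the peak of the locus control region, at chr11:5280680-5280959, where hypersensitive site 2 lies. The summit was 10.9 kb upstream of the start of HBE1, the embryonic gene at the head of the cluster, 26.0 kb from HBG2, 30.96 kb from HBG1, 46.3 kb from HBD and 53.7 kb from HBB. Its fold was 9.50, its −log10 p was 16.6, and it ranked 1634th (25%), with 16 fragments (9.15 to 26.0) over a background of 0.790. For comparison, the median over all LSD1 peaks was 6.99 for the fold, 11.3 for the −log10 p and 13 for the fragments, so that alpha 1 and beta 1 both stood above the middle of the list. The intervals of their fragment numbers overlap, but this is no test of a difference, and none was made.

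**Figure D1:**
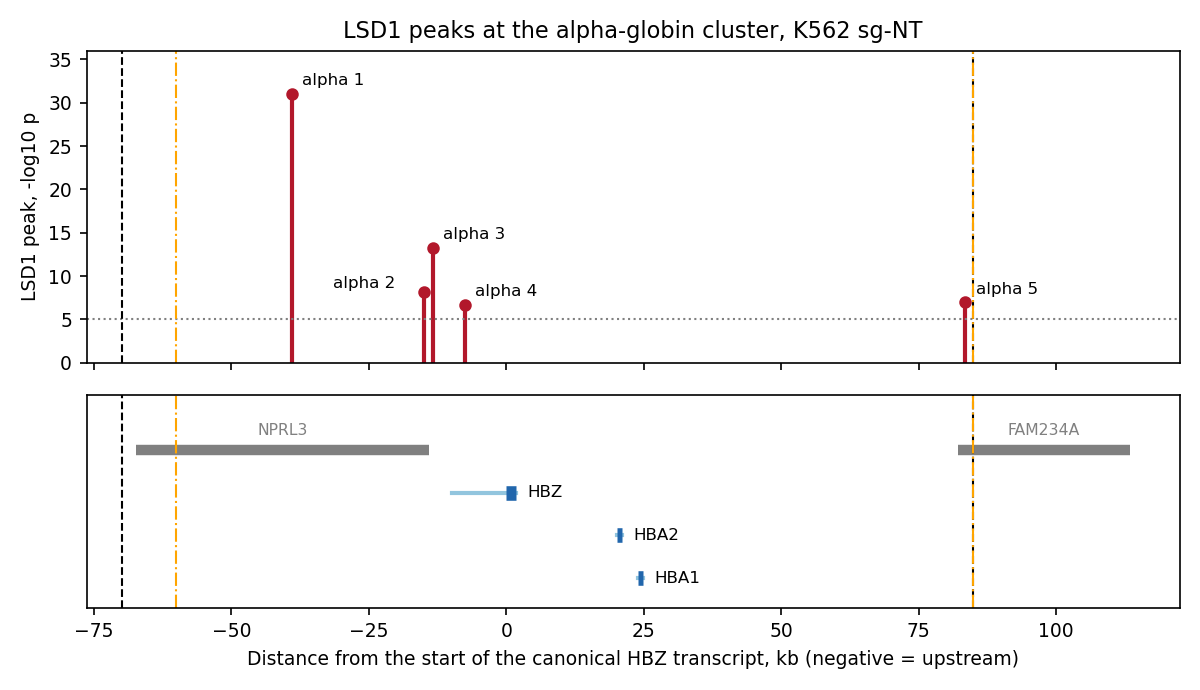
LSD1 peaks of sg-NT K562 cells at the alpha-globin cluster. Upper panel: −log10 p of each peak at its summit (dotted line, the calling threshold); lower panel: canonical transcripts of the globin genes (dark blue, drawn at least 0.8 kb wide), their full gene records (light blue) and 2 neighbouring genes (grey); x axis, kb from the start of HBZ. Dashed black and dash-dotted orange lines mark 60 kb beyond the gene records and beyond the canonical transcripts. Alpha 1 stands at 31.0 and the other 4 peaks between 6.71 and 13.3, with none at a globin gene start.

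**Figure D2:**
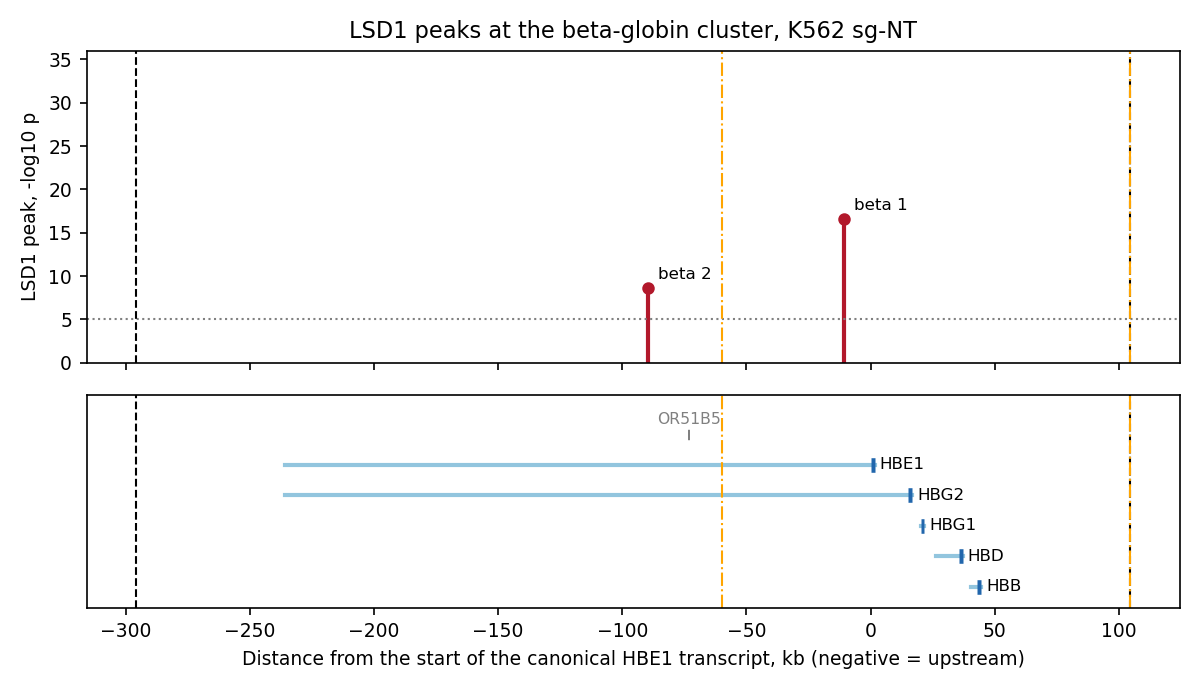
LSD1 peaks of sg-NT K562 cells at the beta-globin cluster, drawn as for the alpha cluster, with kb from the start of HBE1 on the x axis and upstream on the left. Beta 1 (−log10 p 16.6) lies 10.9 kb upstream of HBE1, and beta 2 (8.69) falls outside the window of the canonical transcripts.

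The other 4 alpha peaks were weaker. Alpha 3 (chr16:139235-139496) reached 7.47-fold enrichment (−log10 p 13.3), ranked 2539th (38.8%) with 16 fragments (9.15 to 26.0), and lay 663 bp upstream of the start of NPRL3 and 13.3 kb upstream of HBZ. Alpha 2 (chr16:137574-137824) reached 4.83-fold (−log10 p 8.12) with 14 fragments (7.65 to 23.5), ranked 5066th (77.4%), and lay in intron 2 of NPRL3, 14.9 kb upstream of HBZ. These 2 peaks sit on either side of the NPRL3 start, which faces the globin genes.

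Alpha 4 (chr16:144876-145131), 7.57 kb upstream of the canonical start of HBZ, was the LSD1 peak nearest to any globin gene start. It was within the HBZ gene record but outside its canonical transcript, and had the lowest rank of the 7, 5956th (91.0%), at 4.52-fold (−log10 p 6.71) and 11 fragments (5.49 to 19.7). Alpha 5 (chr16:236010-236525) was the only one on the downstream side, in intron 1 of FAM234A and 59.4 kb beyond the start of HBA1, at 4.89-fold (−log10 p 7.03) and 10 fragments (4.80 to 18.4), ranked 5763rd (88.0%). The fragment intervals of alpha 2, 3, 4 and 5 overlap each other, so that counting error alone leaves their order open to change.

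Beta 2 (chr11:5359662-5359925) entered the window because of the way the gene records are drawn. GENCODE gives HBE1 and HBG2 long transcripts that reach upstream through the neighbouring olfactory receptor genes, with records of 237.308 kb and 252.418 kb. The canonical transcripts of all 8 members have 3 exons and span 0.835 to 1.86 kb. Beta 2 lay 89.8 kb upstream of the canonical start of HBE1 and 8.22 kb from OR51B6, an olfactory receptor gene. It was enriched 6.06-fold (−log10 p 8.69), with 9 fragments (4.12 to 17.1), and ranked 4877th (74.5%).

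**Figure D3:**
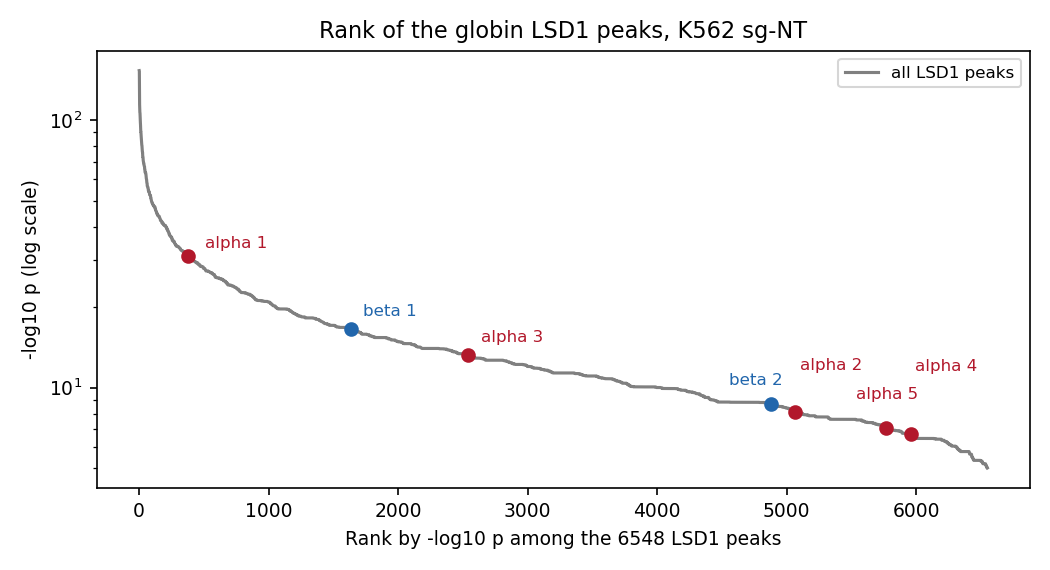
All 6548 LSD1 peaks of sg-NT K562 cells ordered by −log10 p (grey line, log scale), with the 7 globin peaks marked in red (alpha cluster) and blue (beta cluster). Alpha 1 (rank 380) and beta 1 (rank 1634) are the highest of the 7, and beta 2, alpha 2, alpha 5 and alpha 4 are the lowest (ranks 4877 to 5956).

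Repeated sequence set the peaks apart from each other. In alpha 1 and beta 1, 0% of the 24-base words occurred anywhere else in the reference, and in alpha 4 the share was 5.15%. In alpha 2 it was 78.5%, in alpha 3 100%, in alpha 5 74.4% and in beta 2 83.4%, with a median of 12, 1281, 53 and 3887 copies of a word in the genome. A share of at least 50% was thus found in 4 of the 7 globin peaks, against 1264 of all 6548 LSD1 peaks (19.3%), whose median was 3.55%. Without these 4 peaks, 2 alpha peaks and 1 beta peak remained. Words of 100 bases, nearer to the length of a fragment, occurred elsewhere for 35.2% of those of beta 2 and for 0% of those of the other 6 peaks. Whether fragments of other copies were placed at these peaks was not tested.

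The local background also differed between the clusters. It was 1.98 to 3.34 times the genome-wide level at the 5 alpha peaks, 1.25 times at beta 1 and 1.03 times at beta 2. Over all LSD1 peaks the median was 1.38 times, with quartiles of 1.00 and 1.72. Each of the alpha peaks thus stood on a background above the upper quartile, and the part of this in their number was not tested.

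Per Mb, more LSD1 peaks were called in the alpha window than in the beta window. The alpha window (chr16:82728-237522, 154.795 kb) held 5 LSD1 peaks, or 32.3 per Mb, where chromosome 16 as a whole had 5.05 per Mb and the genome 2.23 per Mb. This end of the chromosome is rich in both genes and peaks, and its first Mb held 18 LSD1 peaks. The beta window (chr11:5165464-5565652, 400.189 kb) held 2 peaks, or 5.00 per Mb, against 2.85 per Mb for chromosome 11. Limited to the canonical transcripts and their flanks (164.482 kb), without the long records of HBE1 and HBG2, it held 1 peak, or 6.08 per Mb. The alpha window limited in that way (144.879 kb) held 5 peaks, or 34.5 per Mb. Without the peaks of repeated sequence (at least 50% of words found elsewhere), 2 peaks were left in the alpha window and 1 in the beta window. The difference in density thus rests on few peaks. Outside the windows but within 100 kb of the gene records were 4 further LSD1 peaks, of which 3 lay within 1000 bp of a gene start, those of RHBDF1, POLR3K and TRIM6-TRIM34 (−log10 p of 17.7, 20.8 and 19.7). The remaining one was 2915 bp from the start of OR52A1 (−log10 p of 18.0).

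No globin gene start carried a peak. The number of summits within 1000 bp of the canonical start was 0 for each of the 8 genes in each of the 5 lists, and it was also 0 within 5000 bp. In the LSD1 list, 6.97% of all protein-coding genes had a summit within 1000 bp of the start, and 19.96% of all LSD1 summits were that near to one, so a count of 0 among 8 genes is near what the list as a whole gives. The nearest LSD1 summit to HBZ, HBA2 and HBA1 was that of alpha 4 (7.57, 27.8 and 31.6 kb from their starts), and the nearest to all 5 beta genes was that of beta 1.

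Counted gene by gene, HBZ, HBA2 and HBA1 each had 4 LSD1 peaks in the gene record plus 60 kb, HBE1 and HBG2 had 2, and HBG1, HBD and HBB had 1. In the genome, 44% of protein-coding genes had at least 1 LSD1 peak in such a window and 7% had at least 4. Genes of 1 cluster have overlapping windows and peaks in common, so that the 8 members amount to 2 loci. The peaks were not all the same. HBZ and HBA2 had alpha 1 to alpha 4, while HBA1, whose start is 63.1 kb from alpha 1, had alpha 2 to alpha 5. Beta 2 was counted for HBE1 and HBG2 only. Each gene of the beta cluster with the shorter records, HBG1, HBD and HBB, was reached by beta 1 alone. Within 10 kb of the record, HBZ kept 3 peaks, HBE1 and HBG2 kept 2, and the other 5 genes had 0. In the genome, 24.3% of protein-coding genes had an LSD1 peak that near. HBZ, HBE1 and HBG2 have the longest records of the 8 genes (11.8, 237 and 252 kb), which this count does not correct for. Near-identical copies limit what could be seen inside the genes: the canonical transcripts of HBA1 and HBA2 were identical at 96.7% of aligned positions and those of HBG1 and HBG2 at 97.8%, against 67.5% for HBB and HBD. How reads that match both copies were placed is not given in the sources used here.

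SPI1 and GFI1 had no peak at either cluster. The count in both windows was 0 for SPI1 and GFI1 in THP1 cells and for GFI1 in sg-NT and in sg-LSD1 K562 cells. The share of all protein-coding genes with a peak in the same kind of window was 17.1% for THP1 SPI1, 28.8% for THP1 GFI1, 5.47% for GFI1 in sg-NT cells and 1.67% for GFI1 in sg-LSD1 cells. With only 2 loci, a count of 0 is little to set against these shares. The lists differ in size, from 160 peaks for GFI1 in sg-LSD1 cells and 498 in sg-NT cells to 1846 for THP1 SPI1 and 3461 for THP1 GFI1, and a median of 11 to 13 fragments lay over a summit. If the local background at alpha 1 was raised in these libraries as it was for LSD1, 8 or 9 fragments (a fold of 4.07 to 4.47) would have been needed for a call there, and 6 (a fold of 4.15 to 4.65) at beta 1. Weaker binding was not detectable at this depth. The paper also puts the low number of GFI1 sites in K562 cells down to technical limits of GFI1 antibodies. The part of this in the absence of GFI1 peaks at the globin loci was not tested.

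The nearest GFI1 peaks were far away. On chromosome 16, GFI1 of sg-NT K562 cells was nearest at chr16:1092515-1093466, 941 kb from the start of HBZ and close to C1QTNF8, at 10.5-fold (−log10 p 20.6). The nearest GFI1 peak of THP1 cells lay over the same place (chr16:1092260-1093593, fold 26.3, −log10 p 58.8), and in sg-LSD1 cells the nearest was 4965 kb away. For chromosome 11, the nearest peaks of THP1 cells were beside TRIM22, an interferon-induced gene, 432 kb from the start of HBE1 for GFI1 and 431 kb for SPI1, and those of GFI1 in K562 cells were 1826 kb (sg-NT) and 12648 kb (sg-LSD1) away. SPI1 was nearest to the alpha genes 2487 kb from the start of HBZ.

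None of the 7 globin LSD1 peaks overlapped a peak of another list. Of all LSD1 peaks, 5.96% overlapped a GFI1 peak of the same sg-NT cells, 1.08% one of sg-LSD1 cells, 4.6% one of THP1 GFI1 and 0.779% one of THP1 SPI1. The shares were larger among strong peaks. Of the 382 LSD1 peaks with a −log10 p at least that of alpha 1, 136 (35.6%) overlapped GFI1 in sg-NT cells, and of the 1637 at least as strong as beta 1, 281 (17.2%) did so. Alpha 1 and beta 1 were thus among the LSD1 peaks of their strength without a called GFI1 peak, which were the larger share at either level. As GFI1 had no peak at either locus in sg-NT cells or in the LSD1-depleted sg-LSD1 cells, the sg-LSD1 list allows no statement on a loss of GFI1 there.

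Motif cores were counted in 50 bp and in 200 bp at each summit, on both strands, and set beside the share of all 6548 LSD1 summits that hold them. The GFI1 core AATCAC was present in 50 bp at 1 of 7 globin summits (alpha 5; 2.47% of all LSD1 summits) and in 200 bp at 2 (alpha 3 and 5; 9.77%). Both are peaks of repeated sequence. The SPI1 core GAGGAAGT was at 0 of 7 at either length (0.321% and 1.92% of all). GATA cores were in 50 bp at alpha 1 alone (11.7%) and in 200 bp at alpha 1 and alpha 4 (34.8%). For the NF-E2/AP-1 core, alpha 1 was again the only one in 50 bp (1.59%), joined by beta 1 in 200 bp (7.65%). E-boxes were in 200 bp at 5 of 7 (50.4%) and the CACCC box of KLF factors also at 5 of 7 (42.4%), and in 50 bp at 1 (17.9%) and 2 (12.4%). Both are short and common, and with 7 peaks no more than these counts is read from them.

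Beyond the 2 clusters, 26 further genes of globin biology were looked up, grouped by role. At least 1 LSD1 peak in the record plus 60 kb was found for 21 of the 26, a SPI1 peak of THP1 cells for 8, a GFI1 peak of THP1 cells for 9, a GFI1 peak of sg-NT K562 cells for 4 and a GFI1 peak of sg-LSD1 cells for 0. The shares over all protein-coding genes were, in the same order, 44%, 17.1%, 28.8%, 5.47% and 1.67%. Longer gene records reach more peaks, which this count does not correct for. The 26 genes were also listed with earlier results of these data known, so their counts are not independent of these data.

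All 6 activators of globin genes had LSD1 peaks in the record plus 60 kb, as did 44% of all protein-coding genes. The strongest was 52.9 kb upstream of LMO2, a bridging protein between GATA1 and TAL1 (chr11:33944736-33945214, fold 21.4, −log10 p 53.9), and LDB1, which joins the locus control region to the globin promoters, had one in intron 1 (chr10:102111985-102112635, fold 20.2, −log10 p 43.8). NFE2, the erythroid subunit of NF-E2, had a peak 3.49 kb upstream (chr12:54304282-54304757, fold 20.6, −log10 p 52.5) that overlapped a THP1 GFI1 peak of lower fold (7.72). At GATA1, the master factor of red cells, a peak of fold 8.59 lay 491 bp upstream of the start (chrX:48785947-48786291). TAL1 had 2 peaks, 22.3 and 50.9 kb downstream of its start (fold 12.2 and 9.47), and KLF1, which activates HBB, had 3, of which the nearest was in exon 2 (fold 5.35). Of these 6 genes, LMO2 alone had a GFI1 peak in sg-NT cells, of 5 fragments, where 5.47% of all protein-coding genes had one.

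Among the 9 repressors and switch factors, 8 had an LSD1 peak (44% of all protein-coding genes did), and NR2C1 had none. GFI1B, the erythroid relative of GFI1, had 8 LSD1 peaks, of which 1 lay 14 bp from its start (fold 6.95) and 1 downstream (chr9:133004114-133004582, fold 16.6) was shared with GFI1 in sg-NT cells (fold 7.58). NR2C2, whose product with that of NR2C1 represses embryonic and fetal globin genes, had an LSD1 peak shared with GFI1 in sg-NT cells 105 kb downstream of its start (fold 8.53 for LSD1 and 5.19 for GFI1). The fetal globin repressors BCL11A and ZBTB7A had LSD1 peaks in intron 1 of BCL11A (fold 6.14) and 2.83 kb upstream of ZBTB7A (fold 9.20). MYB had 1 LSD1 peak in intron 5 (fold 6.05) and a THP1 GFI1 peak in intron 1 (fold 12.3). BACH1 and NR2C2 were, with GFI1B, the 3 of this group near which GFI1 was called in sg-NT cells, against 5.47% of all protein-coding genes.

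For the 7 corepressor subunits, 6 had an LSD1 peak (all but CHD4) and 0 a GFI1 peak in sg-NT cells. The shares over all protein-coding genes were 44% and 5.47%. Within 10 kb of the record, 3 of the 7 had an LSD1 peak, against 24.3% of all protein-coding genes. DNMT1, the maintenance DNA methyltransferase, had 7, of which 1 was 390 bp upstream of its start (fold 7.93). The others lay outside its record, 75.7 to 109 kb from its start. KDM1A itself had a weak one in intron 1 (fold 4.91, 7 fragments), and RCOR1, its partner, a stronger one in intron 8 (fold 12.3). The globin-like genes outside the clusters were mixed. CYGB (cytoglobin) had 3 LSD1 peaks, with the strongest in intron 1 (chr17:76531951-76532257, fold 13.5, −log10 p 25.7), MB (myoglobin) had a THP1 GFI1 peak 27.99 kb from its start (fold 6.61), and NGB (neuroglobin) and AHSP, the chaperone of free alpha chains, had 0 in all 5 lists. HBM and HBQ1, alpha-like genes inside the alpha cluster, had 4 LSD1 peaks each, all of them among alpha 1 to alpha 5.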

How the data were processed

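Peaks of 5 ChIP-seq libraries were analysed. The inputs and the mouse H3K4me1 libraries were not used here. Reads had been trimmed with Trim Galore 0.6.1, mapped to GRCh38 with bowtie2 2.5.4 and freed of duplicates with Picard 3.1.0. The authors called peaks per library with MACS2 2.2.9.1 at p 1e-05 and removed the ENCODE blacklist. Whether input served as control is not given in the sources used here. The fold deposited by the authors is a ratio of pileup to background. The deposited −log10 p and −log10 q are those of MACS2. The deposited score was not used.

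The whole number of fragments that gives each pair of fold and −log10 p was found with the pseudocount of 1 (tolerance 0.001 in −log10 p). This gave a solution for 100% of LSD1 peaks. It also returned the fragment numbers of data simulated with the same formula. That simulation checks the solving alone and not how the deposited values were made. The lowest background value that 5 or more peaks had in common stood for the genome-wide level. Read totals were not at hand, so depth is known from these fragments alone. Genes were those of GENCODE 44, with Ensembl canonical transcripts. Peaks overlapped if they shared at least 1 bp. Words of 24 and 100 bases were counted on both strands of chromosomes 1 to 22, X and Y, with Python 3, numpy and pysam. Of the 8 genes, HBD has an entry in the RefSeq promoter table and the other 7 (HBB, HBG1, HBG2, HBE1, HBA1, HBA2, HBZ) do not. No promoter is printed, and the sequence of the other peaks is not reported here. The members and gene lists were chosen with earlier results of these data known. The text names the 8 genes, all peaks in the windows with their neighbouring genes, and the listed globin and regulator genes.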

Additional observations from a re-analysis of the deposited data

How the results depend on the processing

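The 4 SPI1 and GFI1 lists stayed at 0 peaks in both windows under every alternative run (flanks of 10 and 100 kb, canonical transcripts, −log10 p of at least 8, −log10 q of at least 2 and 1 peak per summit), and globin promoters stayed at 0 within 5000 bp. The 5 LSD1 peaks of the alpha window became 7 with a flank of 100 kb and 3 with a flank of 10 kb. They fell to 3 where −log10 p had to reach 8 and to 2 without peaks of repeated sequence. The last of these alternatives was chosen after seeing the data. The 2 of the beta window became 4 with a flank of 100 kb, 1 with canonical transcripts and 1 without peaks of repeated sequence. No globin LSD1 peak became shared with another list under 4 other overlap rules. With 10 kb around the record in place of 60 kb, the listed genes with a peak fell to 4 for THP1 SPI1, 4 for THP1 GFI1 and 2 for GFI1 in sg-NT cells, while LSD1 kept 18 of its 21 and GFI1 in sg-LSD1 cells stayed at 0. The share of protein-coding genes then fell to 7.48% for THP1 SPI1, 13.9% for THP1 GFI1, 24.3% for LSD1, 2.14% for GFI1 in sg-NT cells and 0.704% for GFI1 in sg-LSD1 cells. Summits with a core rose from 1 to 2 for GFI1, GATA and NF-E2/AP-1, from 1 to 5 for the E-box and from 2 to 5 for CACCC when 200 bp replaced 50 bp. Fewer peaks follow from smaller windows and stricter thresholds by construction. No paired analysis was possible because each condition had 1 library and no test was made.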
